A study of Mus musculus with 32 samples.

Results

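The 31 genes described here make cholesterol and fatty acids, or control that synthesis, in the mouse spinal cord. They were chosen by name as a metabolic module with earlier results of these data known, so counts of them are descriptive and do not test the module. All 31 were found among the 42524 genes of the count table: 7 genes of the mevalonate pathway, 11 of the steps from squalene to cholesterol, 4 regulators or carriers of sterols and 9 genes of fatty acid synthesis. The group of 11 includes Fdft1, which makes squalene. RNA sequencing was done on 25 mg of spinal cord from 32 mice in 8 groups of 4. G93A mice carry a human SOD1 transgene with the G93A mutation (the line B6-Tg(SOD1-G93A)1Gur/J, a transgenic model of amyotrophic lateral sclerosis in which the mutant protein is made throughout the body and motor neurons are lost), and wild-type (WT) mice on the same C57BL/6 J background were the controls. Mice of each genotype were untreated or received OKN007, a nitrone compound given in drinking water, and were labelled 90 or 155 days. The 8 groups were therefore WT untreated, WT OKN007, G93A untreated and G93A OKN007 at each of these labels. The study's methods place the earlier collection at 95 days of age, near the onset of disease, where the labels give 90 days. Neither the dose of the sequenced mice nor their sex is in the labels. No label names a batch, so age cannot be told apart from any difference in processing between the 2 collections. The human transgene itself was not analysed here. Mice are numbered as in the sample titles, from 1 to 16 at each age.

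Cholesterol is built from acetyl-CoA through HMG-CoA and mevalonate to squalene, which is closed into lanosterol and then trimmed to cholesterol. Fatty acids start from the same acetyl-CoA, which ATP citrate lyase makes in the cytosol, and are extended and desaturated by elongases and desaturases. The transcription factors SREBP-1 and SREBP-2, encoded by Srebf1 and Srebf2, turn these genes on when cell sterol is low, and INSIG1 holds them back when sterol is plentiful. The brain and spinal cord make their own cholesterol, most of it for the myelin of oligodendrocytes, because lipoproteins of the blood do not cross into them.

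Promoters of the genes are shown because SREBPs act next to the factors NF-Y and Sp1, whose motifs lie close to the start site in many genes of this family. Of the 31 genes, 24 had a promoter in the RefSeq set of build GRCm38.p6. The 250 bases before each start site were searched on both strands for CCAAT (the NF-Y motif), GGGCGG (the GC box bound by Sp1) and TCACNCCAC (a sterol regulatory element, SRE), with matches allowed to overlap. CCAAT was present in 19 of the 24 genes (79.2%), compared with 39.8% of the 12785 genes that were tested at 155 days and had a promoter in the set. The GC box was also present in 19 of the 24 (79.2%), compared with 60.1%, and the SRE in 1 of the 24 (4.17%), compared with 1.22%. These shares describe letters in a window and were not tested. Below are the 150 bases before the start site of 4 of the genes with the lowest levels in G93A mice relative to WT, printed 5′ to 3′ on the gene's strand, with matches to any of the 3 motifs, on either strand, in capitals.
Idi1, chr13:8885456-8885605, strand +: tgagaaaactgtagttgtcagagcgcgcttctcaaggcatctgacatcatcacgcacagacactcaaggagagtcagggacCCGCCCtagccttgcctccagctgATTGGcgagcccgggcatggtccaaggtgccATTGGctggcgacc
Insig1, chr5:28071262-28071411, strand +: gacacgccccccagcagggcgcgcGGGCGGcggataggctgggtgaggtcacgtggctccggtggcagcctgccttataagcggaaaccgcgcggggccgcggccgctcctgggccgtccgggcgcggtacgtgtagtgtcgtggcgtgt
Mvd, chr8:122443423-122443572, strand -: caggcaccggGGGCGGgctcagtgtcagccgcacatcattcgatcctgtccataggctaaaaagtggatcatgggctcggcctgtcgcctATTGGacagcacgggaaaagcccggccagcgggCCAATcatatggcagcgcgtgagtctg
Hmgcs1, chr13:119690201-119690350, strand +: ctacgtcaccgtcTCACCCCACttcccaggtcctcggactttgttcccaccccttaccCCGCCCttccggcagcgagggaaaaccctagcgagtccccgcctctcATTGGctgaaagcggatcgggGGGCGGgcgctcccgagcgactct
The Hmgcs1 stretch holds the single SRE match, followed by a GC box, a CCAAT on the opposite strand and a second GC box. The Mvd and Idi1 stretches each hold a pair of CCAAT matches and 1 GC box, and the Insig1 stretch holds 1 GC box.

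Sequencing depth was 19701722 to 30138257 counts per mouse (median 26658755), and each of the 31 genes passed the filter on low counts at both ages. The lowest count of any of them in a mouse was 33 (Fdps) and the highest 65858 (Scd2). Values are given as CPM, counts relative to library size, after scaling each library by TMM factors, an adjustment for differences in RNA makeup. Differences are log2 fold changes from edgeR's quasi-likelihood test with p-values adjusted by the Benjamini-Hochberg method over all genes tested, and a gene was called at an adjusted p under 0.05. Within a group the genes varied little: the median over groups of the coefficient of variation ran from 5.43% (Fads1) to 18.4% (Idi1). Libraries stood apart in markers of other tissue and in caudal Hox genes. Summed Schwann cell markers reached 1363 CPM in WT untreated mouse 3 and 295 CPM in G93A untreated mouse 10 at 90 days, compared with 46.2 to 120 CPM in the other mice. Summed liver markers reached 190.4 CPM in 1 untreated and 133.5 CPM in 1 OKN007-treated G93A mouse at 155 days. The mean log2(CPM + 1) of 8 caudal Hox genes, which are expressed mainly in the lower cord, was 5.44, 5.35, 5.22 and 5.44 in untreated WT mice and 3.49, 3.45, 5.12 and 5.07 in untreated G93A mice at 155 days. Some genes share sequence with others: 39.1% of the 50-base words of Acat2 transcripts also occur in Acat3, 26.2% of those of Fdps and 17.7% of those of Idi1 occur in pseudogenes or other gene models, and 30.4% of those of Acaca recur elsewhere, so their counts may hold or lack reads of those copies. Exons of several genes, among them Srebf1, Fdft1 and Cyp51, also overlap genes of the opposite strand (Rai1, Ctsb and Akap9 for these). On the same strand, exons of Tm7sf2 overlap Vps51, those of Fdps overlap Gm43738, and those of Srebf1 and Scd2 overlap Mir6922 and Mir5114. The library kit keeps strand, but the strand setting of the counting is not given in the sources used here.

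At 155 days the module was lower in untreated G93A mice than in untreated WT mice. Of the 31 genes, 25 were lower and 2 higher, with 4 not called, when 18.2% of all 18675 genes tested were called lower and 21.3% higher. The median log2 fold change was −0.60 over the 31 genes and 0.000155 over all genes tested. All 7 mevalonate genes and 10 of the 11 genes from squalene to cholesterol fell, while the fatty acid genes were split, with 5 lower, 1 higher and 3 not called. In 22 of the 31 genes every G93A mouse lay below every WT mouse, as did 15.4% of all genes, and in Srebf1 every G93A mouse lay above every WT mouse. The share of all genes that lay above was not computed. The mean log2(CPM + 1) over the 31 genes was 6.44, 6.45, 6.40 and 6.25 in the WT mice and 5.99, 5.81, 5.72 and 5.97 in the G93A mice, so the groups were apart. In bulk tissue, fewer cells of a type and less RNA per cell cannot be told apart.

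**Figure D1:**
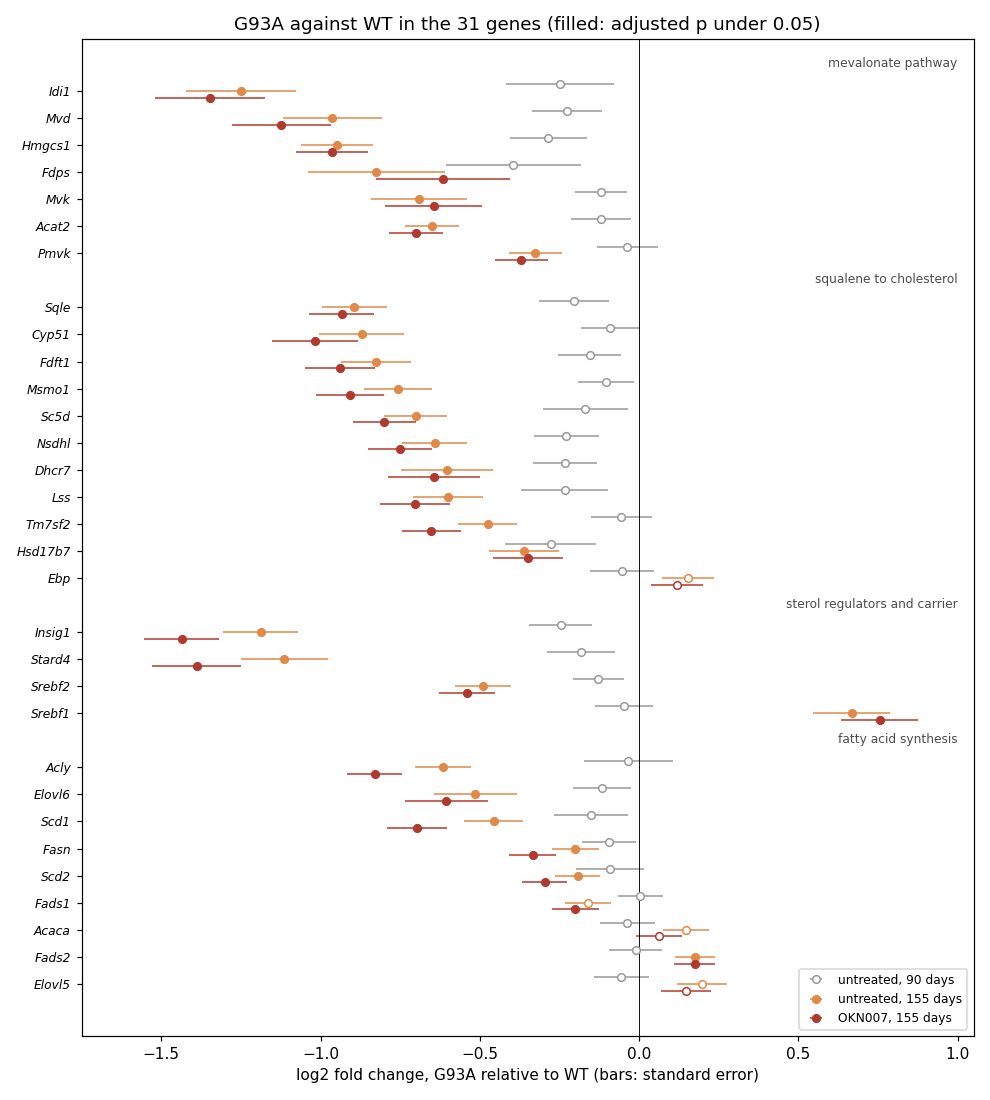
Log2 fold change of each of the 31 genes in G93A mice relative to WT mice (x axis), for untreated mice at 90 days (grey), untreated mice at 155 days (orange) and OKN007-treated mice at 155 days (red), with bars of 1 standard error and filled points at an adjusted p under 0.05. At 155 days 25 untreated and 26 OKN007-treated points are filled left of zero, and no point is filled at 90 days.

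All 7 genes of the mevalonate pathway were lower in untreated G93A mice at 155 days, with a median log2 fold change of −0.83. Idi1, which encodes the isopentenyl diphosphate isomerase, was at 39.6, 35.4, 38.1 and 28.6 CPM in the 4 untreated WT mice and at 18.3, 11.4, 10.2 and 18.8 CPM in the 4 untreated G93A mice. Its groups did not overlap, and its decrease was the largest of the 31 genes (log2 fold change −1.25, SE 0.17, adjusted p = 1.32e-05). Mvd, the decarboxylase that makes isopentenyl diphosphate, was at 21.7, 29.7, 19.1 and 18.8 CPM in the 4 untreated WT mice and at 14, 10.3, 9.6 and 11.3 CPM in the 4 untreated G93A mice. All 4 G93A values lay below the lowest WT value (log2 fold change −0.96, SE 0.15, adjusted p = 7.6e-05). Hmgcs1, the cytosolic HMG-CoA synthase, was at 628, 587, 678 and 553 CPM in the 4 untreated WT mice and at 361, 294, 251 and 349 CPM in the 4 untreated G93A mice. It fell by 48.1% in G93A mice, with no overlap (log2 fold change −0.95, SE 0.11, adjusted p = 2.19e-06). Fdps, which makes farnesyl diphosphate, was at 3.43, 3.43, 2.75 and 1.9 CPM in the 4 untreated WT mice and at 1.56, 1.9, 1.35 and 1.59 CPM in the 4 untreated G93A mice. Here the highest G93A mouse was above the lowest WT mouse, and the change rested on the smallest counts of the module (log2 fold change −0.83, SE 0.21, adjusted p = 0.00483). Mvk, the mevalonate kinase, was at 29.97, 46.2, 29.7 and 27.9 CPM in the 4 untreated WT mice and at 26.2, 18.04, 16.7 and 20.9 CPM in the 4 untreated G93A mice. The second WT mouse was far above the other 3, and the groups did not overlap (log2 fold change −0.69, SE 0.15, adjusted p = 0.00136). Acat2, the cytosolic thiolase that joins acetyl-CoA units, was at 50.4, 53.3, 43.9 and 44.8 CPM in the 4 untreated WT mice and at 33.2, 27.1, 29.3 and 31.8 CPM in the 4 untreated G93A mice. Again no values overlapped (log2 fold change −0.65, SE 0.08, adjusted p = 6.43e-06). Pmvk, the phosphomevalonate kinase, was at 66.8, 76.5, 64.6 and 78.3 CPM in the 4 untreated WT mice and at 62.2, 50.5, 55.9 and 57.3 CPM in the 4 untreated G93A mice. Its decrease was the smallest of the 7 (log2 fold change −0.33, SE 0.08, adjusted p = 0.00443).

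**Figure D2:**
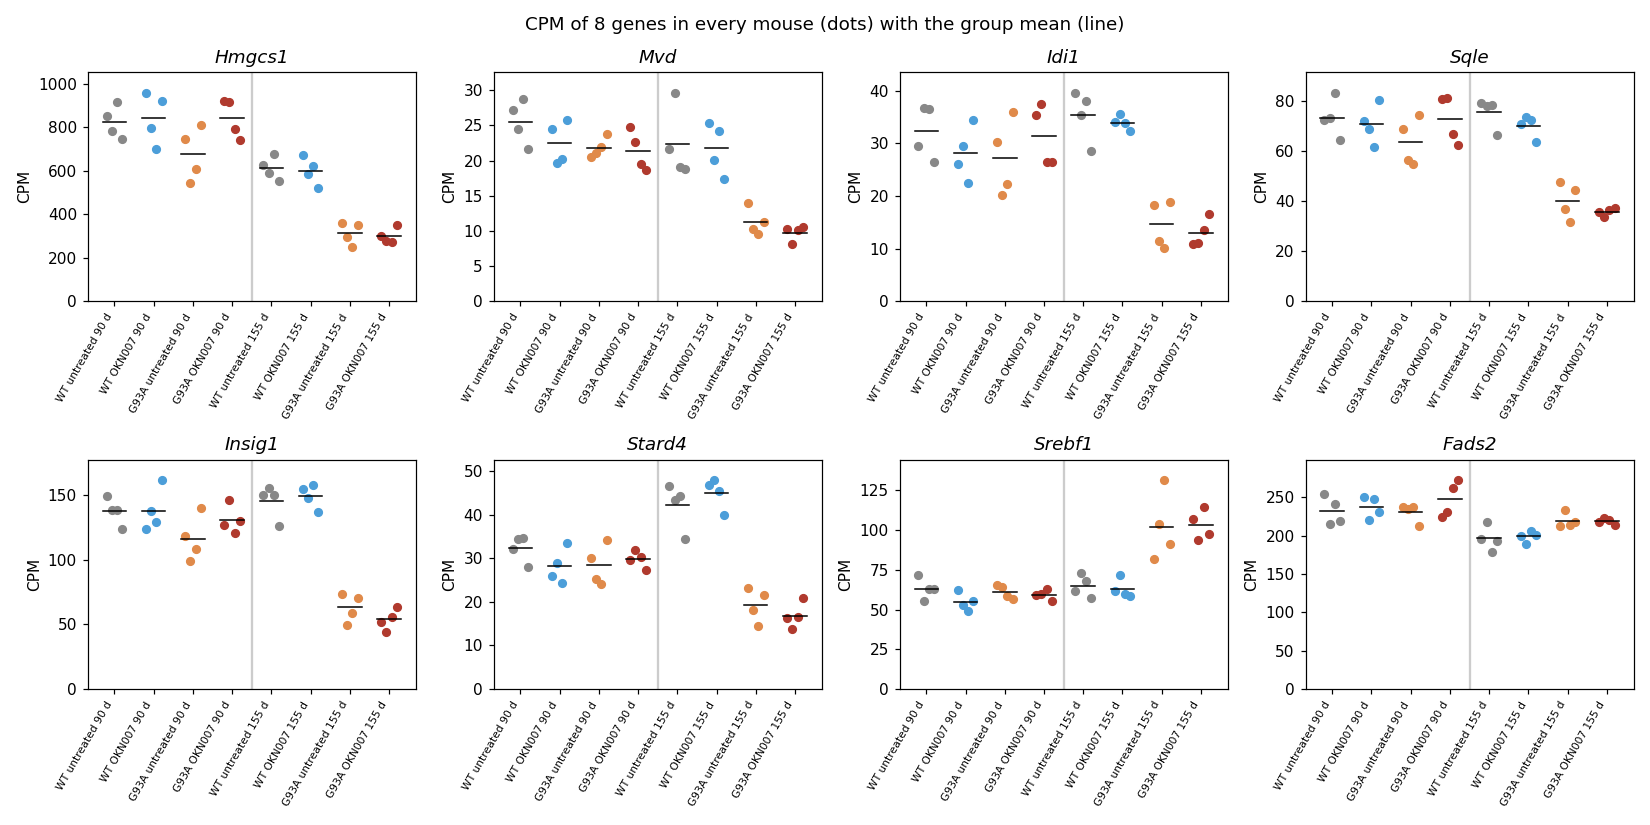
CPM (y axis, from 0) of 8 of the genes in each mouse (dots) of the 8 groups (x axis), with the group mean as a line. In Hmgcs1, Mvd, Idi1, Sqle, Insig1 and Stard4 all G93A mice at 155 days lie below all WT mice of that age and treatment, and in Srebf1 they lie above them.

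Of the 11 genes in the group from squalene to cholesterol, 10 were lower and Ebp was not called, with a median of −0.64. Sqle, the squalene epoxidase that takes the first oxygen step, was at 79.02, 77.9, 78.2 and 66.4 CPM in the 4 untreated WT mice and at 47.5, 37, 31.5 and 44.4 CPM in the 4 untreated G93A mice. No G93A mouse reached the WT range (log2 fold change −0.89, SE 0.10, adjusted p = 1.3e-06). Cyp51, the lanosterol demethylase, was at 210.4, 194, 192 and 173 CPM in the 4 untreated WT mice and at 127, 94.4, 71.3 and 123 CPM in the 4 untreated G93A mice. Its levels in G93A mice spread from 71.3 to 127 CPM, all under the lowest WT level (log2 fold change −0.87, SE 0.13, adjusted p = 4.7e-05). Fdft1, the squalene synthase, was at 149, 179.6, 154 and 140.4 CPM in the 4 untreated WT mice and at 105, 77.8, 71.7 and 92.8 CPM in the 4 untreated G93A mice. Its groups were likewise apart (log2 fold change −0.83, SE 0.11, adjusted p = 8.08e-06). Msmo1, the sterol C4-methyl oxidase, was at 209.7, 208, 205 and 181 CPM in the 4 untreated WT mice and at 141, 109, 98.7 and 123 CPM in the 4 untreated G93A mice. Its log2 fold change was −0.76 (SE 0.11). Sc5d, the sterol C5-desaturase, was at 136, 115, 134 and 112 CPM in the 4 untreated WT mice and at 80.6, 71.4, 62.6 and 87.99 CPM in the 4 untreated G93A mice. Its log2 fold change of −0.70 (SE 0.10) was near that of Msmo1. Nsdhl, which removes the C4 group as part of the same demethylation, was at 20.7, 24.9, 22.5 and 18.1 CPM in the 4 untreated WT mice and at 14.8, 12.1, 13.01 and 14.6 CPM in the 4 untreated G93A mice. It fell by 0.64 on the log2 scale (SE 0.10). Dhcr7, which makes cholesterol in the last step of one branch, was at 27.4, 29.8, 25.4 and 23.4 CPM in the 4 untreated WT mice and at 20.1, 18.5, 12.6 and 17.7 CPM in the 4 untreated G93A mice. Its highest G93A mouse stayed under the lowest WT mouse, with a log2 fold change of −0.60 (SE 0.14). Lss, the lanosterol synthase, was at 48.1, 44.9, 46.8 and 35.8 CPM in the 4 untreated WT mice and at 31.4, 26.2, 24.8 and 32.1 CPM in the 4 untreated G93A mice. The groups were apart and the log2 fold change was −0.60 (SE 0.11). Tm7sf2, a sterol C14-reductase, was at 15.5, 16.7, 16.6 and 16.6 CPM in the 4 untreated WT mice and at 10.1, 11.1, 11.7 and 13.7 CPM in the 4 untreated G93A mice. The WT mice were close together, and the log2 fold change was −0.47 (SE 0.09). The adjusted p of the 6 genes after Fdft1, from Msmo1 to Tm7sf2, ran from 1.59e-05 (Sc5d) to 0.00252 (Dhcr7). Hsd17b7, a sterol ketone reductase, averaged 24.5 ± 4.83 CPM in WT and 18.9 ± 0.403 CPM in G93A mice (SD, n = 4) and was called (log2 fold change −0.36, SE 0.11, adjusted p = 0.013), but its groups overlapped and the call was lost without WT mouse 1 (adjusted p = 0.0508) or WT mouse 3 (adjusted p = 0.0626). Ebp, the sterol isomerase between these steps, was at 26.3, 29.1, 23.8 and 26.3 CPM in the 4 untreated WT mice and at 28.4, 29.2, 30.8 and 27.9 CPM in the 4 untreated G93A mice. It was not called, and its fold change lay on the other side of zero (log2 fold change 0.15, SE 0.08, adjusted p = 0.142).

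Of the 4 regulators and carriers of sterols, 3 were lower and Srebf1 was higher. Insig1, a target of SREBP that retains it in the endoplasmic reticulum, was at 150, 155, 150 and 127 CPM in the 4 untreated WT mice and at 73.7, 49.9, 58.6 and 70.6 CPM in the 4 untreated G93A mice. It fell by 56.1%, with a wide gap between the groups and the smallest p of the 31 genes (log2 fold change −1.19, SE 0.12, adjusted p = 2.1e-07). Stard4, which carries cholesterol between membranes, was at 46.7, 43.4, 44.4 and 34.5 CPM in the 4 untreated WT mice and at 23.1, 18.1, 14.4 and 21.6 CPM in the 4 untreated G93A mice. It fell by 53.8%, again without overlap (log2 fold change −1.11, SE 0.14, adjusted p = 3.5e-06). Srebf2, which encodes the SREBP that mainly serves the cholesterol genes, was at 129, 150.3, 151 and 134 CPM in the 4 untreated WT mice and at 114, 92.7, 83.5 and 108 CPM in the 4 untreated G93A mice. Its change was smaller than those of Insig1 and Stard4, with the groups apart (log2 fold change −0.49, SE 0.09, adjusted p = 0.000225). Srebf1, which encodes the SREBP that mainly serves the fatty acid genes, was at 61.4, 72.9, 67.8 and 57.6 CPM in the 4 untreated WT mice and at 81.9, 104, 131 and 91.3 CPM in the 4 untreated G93A mice. It rose by 58.9%, and each G93A mouse was above each WT mouse (log2 fold change 0.67, SE 0.12, adjusted p = 0.000234).

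Among the 9 fatty acid genes, Acly, Elovl6, Scd1, Fasn and Scd2 were lower, Fads2 was higher, and Acaca, Elovl5 and Fads1 were not called, with a median of −0.19. Acly, the ATP citrate lyase that supplies acetyl-CoA to both pathways, was at 333, 294, 309.5 and 279 CPM in the 4 untreated WT mice and at 216, 187, 173 and 209.9 CPM in the 4 untreated G93A mice. It showed the largest decrease of the 9, without overlap (log2 fold change −0.62, SE 0.09, adjusted p = 1.82e-05). Elovl6, the elongase of saturated C16 chains, was at 61.3, 45.6, 62.5 and 50.6 CPM in the 4 untreated WT mice and at 40, 38.2, 27.04 and 47.1 CPM in the 4 untreated G93A mice. The highest G93A mouse was above the lowest WT mouse (log2 fold change −0.51, SE 0.13, adjusted p = 0.00391). Scd1, a stearoyl-CoA desaturase, was at 563, 445, 500.4 and 484 CPM in the 4 untreated WT mice and at 345, 311, 353 and 429 CPM in the 4 untreated G93A mice. Its groups did not overlap (log2 fold change −0.46, SE 0.09, adjusted p = 0.00074). Scd2, the desaturase that predominates in the brain, was at 2147, 1860, 2106 and 1889 CPM in the 4 untreated WT mice and at 1776, 1631, 1754 and 1771 CPM in the 4 untreated G93A mice. The groups were apart by a small margin (log2 fold change −0.19, SE 0.07, adjusted p = 0.0366). Fasn, the fatty acid synthase, was at 181, 174, 179.9 and 182 CPM in the 4 untreated WT mice and at 153, 153, 149 and 162 CPM in the 4 untreated G93A mice. Each G93A mouse was below each WT mouse (log2 fold change −0.20, SE 0.07, adjusted p = 0.0364). Fads2, the delta-6 desaturase of polyunsaturated chains, was at 196, 217, 179 and 193 CPM in the 4 untreated WT mice and at 213, 233, 214 and 218 CPM in the 4 untreated G93A mice. It was called higher although 1 WT mouse lay within the G93A range (log2 fold change 0.18, SE 0.06, adjusted p = 0.0352). The calls of Fasn, Scd2 and Fads2 were marginal and were lost under several other settings, among them a fit without WT mouse 3 (adjusted p = 0.0697 for Fasn, 0.101 for Scd2 and 0.132 for Fads2), and that of Fads2 also with each of the 3 other scalings tried (adjusted p 0.0526 to 0.073). Acaca, the acetyl-CoA carboxylase, was at 87.4, 76.2, 80.4 and 80.4 CPM in the 4 untreated WT mice and at 85.04, 87.1, 98.3 and 85.3 CPM in the 4 untreated G93A mice. Elovl5, an elongase of polyunsaturated chains, was at 194, 159.9, 198 and 179.7 CPM in the 4 untreated WT mice and at 205, 236, 187 and 201 CPM in the 4 untreated G93A mice. Neither was called, and both fold changes were positive: 0.15 (SE 0.07) for Acaca and 0.20 (SE 0.08) for Elovl5. Fads1, the delta-5 desaturase, averaged 173 ± 13.4 CPM in WT and 154 ± 13.6 CPM in G93A mice (SD, n = 4) and was not called either (log2 fold change −0.16, SE 0.07, adjusted p = 0.0917).

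A list of 31 other tested genes of lipid synthesis and SREBP control held 9 lower and 6 higher genes in the same comparison, when 18.2% of all genes were lower and 21.3% higher, so the share of higher genes was below that over all genes. The lower genes, with log2 fold changes in brackets, included Acss2, an acetyl-CoA synthetase (−0.50 (SE 0.09)), Tecr, a reductase of fatty acid elongation (−0.48 (SE 0.09)), and Ggps1, which makes geranylgeranyl diphosphate (−0.26 (SE 0.08)), which were picked after their values were seen. Mylip, which encodes the ligase that degrades the LDL receptor and is a target of the sterol-sensing LXR receptors, was at 19.7, 16.5, 19.1 and 14.9 CPM in the 4 untreated WT mice and at 38.9, 54.7, 57.5 and 40.1 CPM in the 4 untreated G93A mice. It was higher in each G93A mouse (log2 fold change 1.46, SE 0.13, adjusted p = 6.48e-08). Hacd2, a dehydratase of fatty acid elongation, was at 44.7, 45.9, 42.8 and 43.1 CPM in the 4 untreated WT mice and at 78.2, 92, 121 and 73.2 CPM in the 4 untreated G93A mice. It was also higher in each G93A mouse (log2 fold change 1.06, SE 0.12, adjusted p = 9.88e-07). The other genes called higher were Soat1, which esterifies cholesterol (0.85 (SE 0.09)), Nr1h3, which encodes LXR alpha (0.47 (SE 0.12)), Me1 (0.41 (SE 0.07)) and Fads3 (0.41 (SE 0.14)). Scap, which escorts SREBP to the Golgi, was not called (0.11 (SE 0.06)), nor were Mbtps1 (0.06 (SE 0.06)) and Mbtps2 (−0.07 (SE 0.10)), the proteases that release it.

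Markers of the cell types of the cord moved in the same comparison. Of 12 oligodendrocyte markers none was called lower and 2 were called higher. Their log2 fold changes ran from −0.217 to 0.90 (median 0.02), 7 positive and 5 negative. Their summed level was 22820 to 25120 CPM in WT and 22500 to 27020 CPM in G93A mice. All 8 neuron markers were lower (median −0.52), from 11620 to 14680 CPM in WT to 5913 to 8358 CPM in G93A mice. All 9 microglia markers were higher (median 2.70), from 169.5 to 216.1 CPM in WT to 819 to 1522 CPM in G93A mice, and 6 of 8 astrocyte markers were higher. None of these markers was at zero in any mouse. The part of the shifts in neuron, microglia, astrocyte and oligodendrocyte markers in the levels of the 31 genes was not tested. The caudal Hox mean was also lower in each G93A mouse than in each WT mouse, by far the most in G93A mice 9 and 10. With it as a covariate 22 of the 31 genes were lower and 1 higher, and the share of all genes called in that fit is not given here. Because the genotypes did not overlap in the Hox mean, its part and that of genotype cannot be told apart in that fit. Adipocyte markers, summed, stayed at or below 5.30 CPM except for 35.5 CPM in 1 untreated G93A mouse at 155 days.

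**Figure D3:**
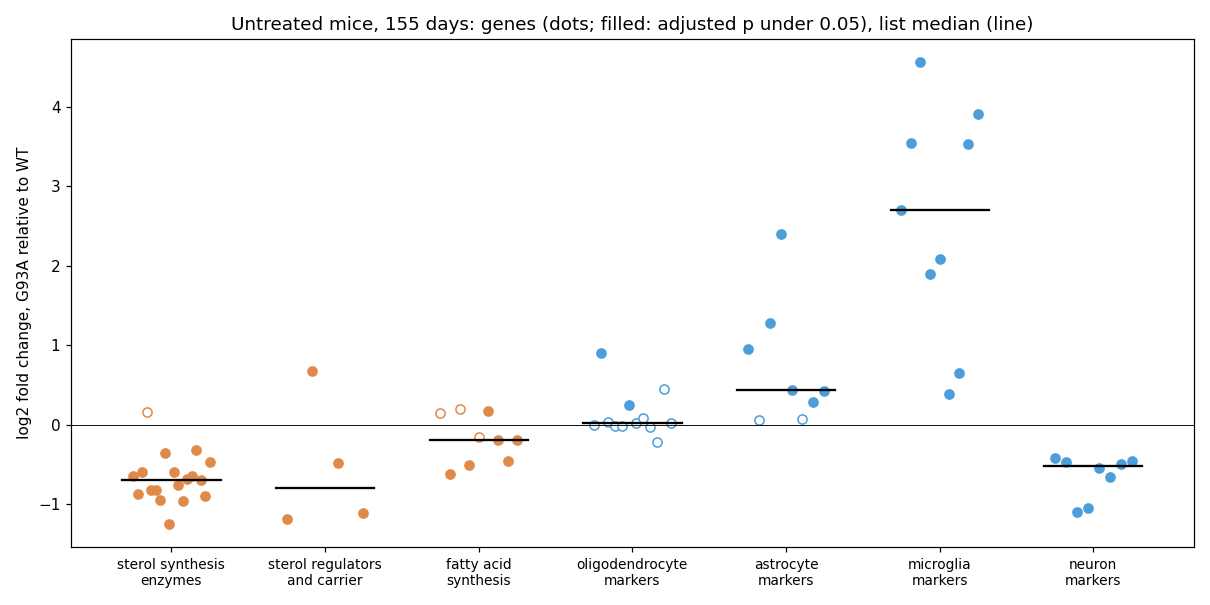
Log2 fold change in untreated G93A relative to WT mice at 155 days (y axis) for genes of the module by role (orange) and for markers of 4 cell types (blue), with filled points at an adjusted p under 0.05 and the list median as a line. The 18 sterol synthesis enzymes lie below zero except Ebp, and the oligodendrocyte markers range from −0.217 to 0.90 around a median of 0.02.

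OKN007-treated mice at 155 days, none of them in the groups compared above, gave a second contrast of G93A with WT. Both contrasts came from 1 fit of 16 mice and share its estimate of the spread, so they are not separate tests. In these mice 26 of the 31 genes were lower and 2 higher, when 18.2% of the 18675 genes tested were called lower and 23.3% higher, and the median was −0.65. In 26 genes every G93A mouse was below every WT mouse (21.9% of all genes), and in Srebf1, Elovl5 and Fads2 every G93A mouse was above. The share of all genes above was not computed. In Elovl5, which was not called, the lowest G93A mouse was at 194.6 CPM and the highest WT mouse at 194.1 CPM. The sign was that of the untreated contrast in 31 of 31 genes, and 27 genes were called in both contrasts, each in the same direction. Across genes, which are not independent replicates, the log2 fold changes of the 2 contrasts correlated with Pearson's r = 0.982 and Spearman's rho = 0.947 over 31 genes, and the largest difference between them was 0.276 (Stard4). Neither this correlation nor the agreement of signs and calls was computed over all genes. Of all genes tested, 39.5% were called in the untreated and 41.5% in the OKN007 contrast, so whether the agreement is particular to the module was not tested. Insig1 was at 155, 148, 158 and 137 CPM in WT OKN007 mice and at 51.7, 44.2, 56.1 and 63.7 CPM in G93A OKN007 mice. The gap between its groups was wide (log2 fold change −1.44, SE 0.12, adjusted p = 1.5e-08). Stard4 was at 46.9, 47.9, 45.5 and 39.97 CPM in WT OKN007 mice and at 16.2, 13.8, 16.4 and 20.8 CPM in G93A OKN007 mice, also without overlap (log2 fold change −1.39, SE 0.14, adjusted p = 1.89e-07). Idi1 was at 34, 35.6, 33.9 and 32.4 CPM and 10.9, 11.2, 13.5 and 16.7 CPM in the same groups, and each G93A mouse lay at or below 16.7 CPM (log2 fold change −1.35, SE 0.17, adjusted p = 4.74e-06). Srebf1 was at 61.5, 71.7, 59.5 and 58.4 CPM and 107, 93.9, 115 and 97.8 CPM, higher in each G93A mouse (log2 fold change 0.76, SE 0.12, adjusted p = 5.77e-05). Of the genes not called in untreated mice, Fads1 was called lower here (log2 fold change −0.20, SE 0.07, adjusted p = 0.0343), while Ebp, Acaca and Elovl5 were not called. The cell markers moved here too: all 8 neuron markers were lower (median −0.72), all 9 microglia markers (median 2.92) and 5 of 8 astrocyte markers were higher, and of 12 oligodendrocyte markers none was lower and 3 were higher. The caudal Hox mean was 4.21 to 4.99 in G93A and 5.37 to 5.62 in WT mice, without overlap. With that mean as a covariate 25 of the 31 genes were lower and 1 higher. The share of all genes called in that fit is not given here, and the part of the Hox mean and that of genotype cannot be told apart in it. The part of the marker shifts in this contrast was not tested.

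At 90 days none of the 31 genes was called between untreated G93A and WT mice by edgeR's quasi-likelihood test, as was true of every gene tested (0% of 18899). None of the 31 was called by DESeq2 or edgeR's likelihood ratio test. At an unadjusted p under 0.05 there were 4 by the quasi-likelihood test (Insig1, Hmgcs1, Dhcr7 and Nsdhl) and 4 by each of the other tests, when 5.96% of all genes passed that level. The fold change was negative in 30 of the 31 genes, with a median of −0.12. Insig1, with the smallest p, was at 149.6, 139, 139 and 124 CPM in WT and at 118, 98.9, 108 and 139.9 CPM in G93A mice, and the groups overlapped (log2 fold change −0.25 (SE 0.10), adjusted p = 0.822). The mean over the 31 genes was 6.49, 6.47, 6.58 and 6.34 in WT and 6.40, 6.19, 6.23 and 6.49 in G93A mice, with 2 G93A mice below and 2 within the WT range. The genes rose and fell together between mice, so 30 signs are not 30 separate observations. Of the 18 sterol synthesis enzymes, WT mouse 4 was the lowest of its group in 13 and WT mouse 3 the highest in 13. G93A mouse 12 was the highest of its group in 13. WT mouse 3, with the highest mean, and G93A mouse 10, with the lowest, were the mice with high Schwann cell markers. The part of that tissue in the signs was not tested. Without G93A mouse 12, 12 genes passed the unadjusted level, and without G93A mouse 10 or 11 none did. The share of all genes at that level in these fits is not given here. In OKN007-treated mice at 90 days no gene was called by any of the 3 tests and none had an unadjusted p under 0.05 (3.95% of all genes did), with fold changes from −0.10 to 0.17.

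**Figure D4:**
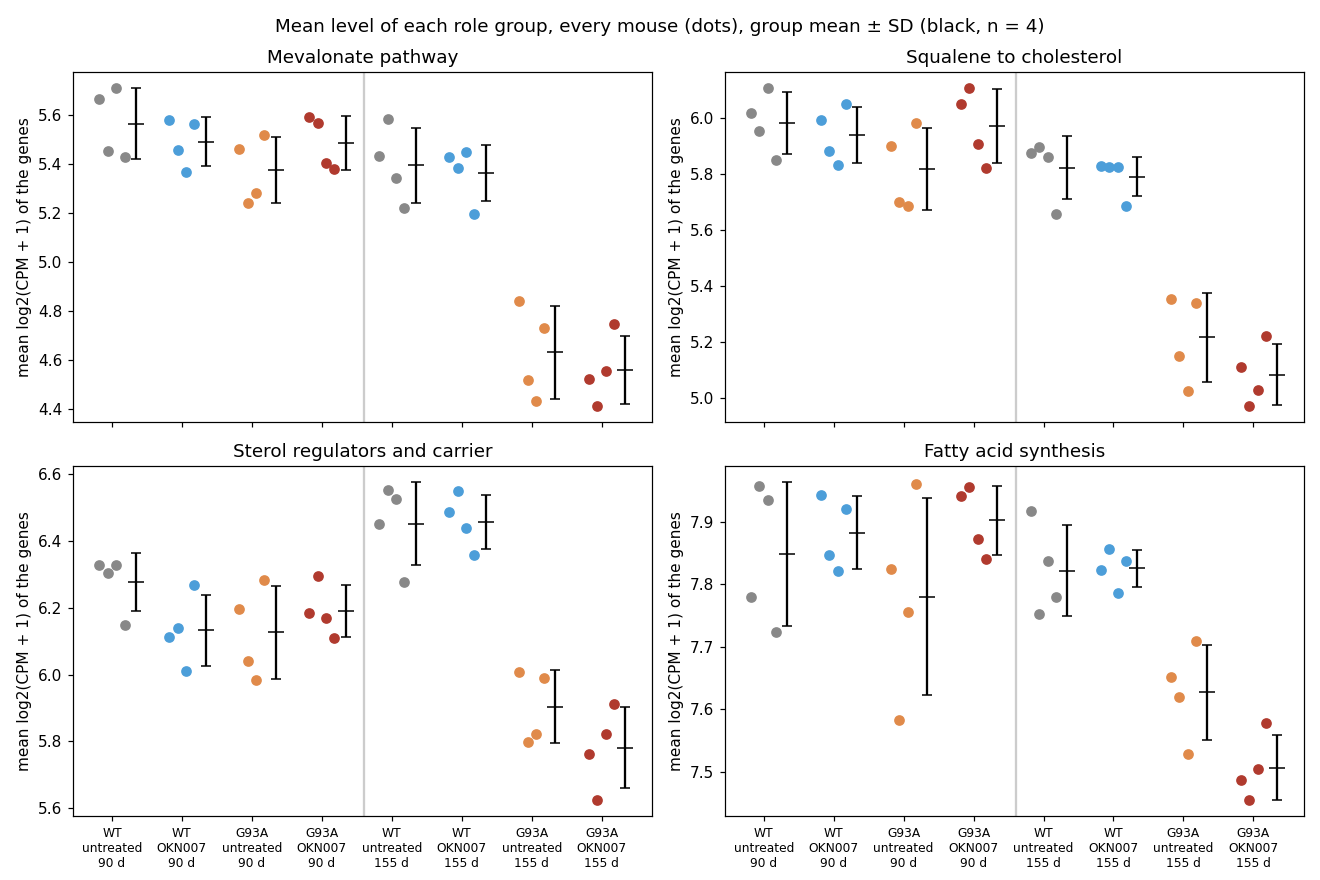
Mean log2(CPM + 1) of the genes of each role (y axes, which differ in range and do not start at 0) in each mouse (dots) of the 8 groups (x axis), with the group mean and SD in black. In the mevalonate and the squalene to cholesterol panels the G93A mice at 155 days lie below all other mice, and at 90 days the 4 groups overlap.

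The change in G93A mice was set against age in the untreated groups. In G93A mice 21 of the 31 genes were lower and 2 higher at 155 than at 90 days, when 12.8% of the 19829 genes tested were lower and 21% higher. In WT mice 9 were lower and 2 higher, when 9.61% of all genes were lower and 15.3% higher. The difference between G93A and WT was itself more negative at 155 days in 16 genes and more positive in 1, Srebf1, by the interaction of genotype and age, when 8.34% of all genes were lower and 12.9% higher. These 3 comparisons share mice. Oligodendrocyte markers were lower at 155 days in WT mice (11 of 12) and in G93A mice (9 of 12). In G93A mice all 9 microglia markers were higher and 5 of 8 neuron markers lower at 155 days, and the caudal Hox mean went from 4.92 to 4.28, while in WT mice it went from 4.96 to 5.36. The part of these shifts in the age changes was not tested.

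In the mevalonate pathway all 7 genes were lower at 155 days in G93A mice, and Hmgcs1, Pmvk and Fdps also in WT mice. At 90 days Hmgcs1 was at 852, 782, 917 and 743 CPM in untreated WT mice and at 745, 543, 609 and 811 CPM in untreated G93A mice. Hmgcs1 was lower with age by −0.43 (SE 0.12) in WT and −1.11 (SE 0.13) in G93A mice on the log2 scale, and the 2 changes differed by −0.68 (SE 0.18) (adjusted p = 0.00547). Pmvk was at 105, 75.5, 96.99 and 96.2 CPM in untreated WT mice and at 92.5, 83.1, 97.7 and 91.4 CPM in untreated G93A mice, and Fdps was at 5.49, 2.56, 4.77 and 4.16 CPM in untreated WT mice and at 4.15, 3.28, 3.1 and 2.41 CPM in untreated G93A mice. For neither was the difference of the changes called (adjusted p = 0.0849 for Pmvk and 0.308 for Fdps). Idi1 was at 29.6, 36.6, 36.5 and 26.5 CPM in untreated WT mice and at 30.3, 20.2, 22.2 and 35.9 CPM in untreated G93A mice. Mvd was at 27.2, 24.5, 28.8 and 21.6 CPM in untreated WT mice and at 20.6, 21.04, 21.98 and 23.7 CPM in untreated G93A mice. Mvk was at 33.3, 30.6, 34.8 and 27.2 CPM in untreated WT mice and at 28.5, 29.01, 25.9 and 32.6 CPM in untreated G93A mice, and Acat2 was at 48.7, 46.8, 50.9 and 40.6 CPM in untreated WT mice and at 43.5, 38.8, 36.7 and 53.1 CPM in untreated G93A mice. In these 4 genes the WT change with age was not called, and the G93A change differed from it, by −1.02 (SE 0.26) for Idi1, −0.75 (SE 0.20) for Mvd, −0.59 (SE 0.18) for Mvk and −0.55 (SE 0.13) for Acat2.

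From squalene to cholesterol, 10 of the 11 genes were lower with age in G93A mice, and Tm7sf2, Msmo1, Ebp and Dhcr7 in WT mice. At 90 days Sqle was at 72.4, 73.3, 83.2 and 64.5 CPM in untreated WT mice and at 68.9, 56.3, 54.97 and 74.5 CPM in untreated G93A mice. Cyp51 was at 219, 218, 240 and 185 CPM in untreated WT mice and at 218, 183, 180.4 and 228 CPM in untreated G93A mice. Fdft1 was at 163, 161, 169.7 and 127 CPM in untreated WT mice and at 139, 139, 122 and 157 CPM in untreated G93A mice. These 3 had G93A changes with age that differed from the WT changes by −0.71 (SE 0.16), −0.80 (SE 0.17) and −0.69 (SE 0.16) in that order, and none of the 3 was called with age in WT mice. Msmo1 was at 256, 248, 274 and 212 CPM in untreated WT mice and at 228, 226, 210.1 and 256 CPM in untreated G93A mice. Tm7sf2 was at 20.5, 18.6, 21.7 and 21.5 CPM in untreated WT mice and at 18.9, 21.6, 20.1 and 18.7 CPM in untreated G93A mice. Both were lower with age in both genotypes, and further in G93A mice (difference −0.67 (SE 0.15) for Msmo1 and −0.44 (SE 0.13) for Tm7sf2). Nsdhl was at 22.2, 25.1, 25.8 and 21.2 CPM in untreated WT mice and at 20.7, 17.7, 18.7 and 23.3 CPM in untreated G93A mice, and Sc5d was at 117, 141, 146 and 109 CPM in untreated WT mice and at 128, 87.8, 99.1 and 142 CPM in untreated G93A mice. Their differences of −0.43 (SE 0.15) and −0.55 (SE 0.18) were also called. Lss was at 53.6, 40.6, 58.1 and 49.7 CPM in untreated WT mice and at 52.3, 33.8, 37.9 and 47.95 CPM in untreated G93A mice, and Dhcr7 was at 37.1, 30.7, 37.5 and 30.7 CPM in untreated WT mice and at 29.3, 27.3, 25.6 and 33.7 CPM in untreated G93A mice. Their differences were not called (adjusted p = 0.137 for Lss and 0.135 for Dhcr7). Ebp was at 40.7, 34.7, 37.3 and 38.01 CPM in untreated WT mice and at 36.9, 39.04, 37.4 and 31.8 CPM in untreated G93A mice. It was lower with age by −0.51 (SE 0.09) in WT and −0.32 (SE 0.09) in G93A mice, with no difference called (adjusted p = 0.295). Hsd17b7 was not called in any age comparison.

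The sterol regulators parted with age. At 90 days Insig1 had overlapping genotypes, as given above, and its change with age was 0.08 (SE 0.11) in WT and −0.88 (SE 0.12) in G93A mice, a difference of −0.96 (SE 0.16) with the smallest p of the 31 genes (adjusted p = 5.91e-05). Stard4 was at 32.05, 34.5, 34.8 and 27.97 CPM in untreated WT mice and at 30.1, 25.3, 24.1 and 34.2 CPM in untreated G93A mice. It rose with age in WT mice (log2 fold change 0.39, SE 0.13, adjusted p = 0.0297) and fell in G93A mice (log2 fold change −0.56, SE 0.13, adjusted p = 0.0015), and the difference of −0.95 (SE 0.19) was called. Srebf1 was at 71.9, 55.1, 62.9 and 62.7 CPM in untreated WT mice and at 65.7, 64.1, 58.3 and 56.5 CPM in untreated G93A mice. It rose with age in G93A mice (0.74 (SE 0.11)), was 0.04 (SE 0.11) in WT mice and not called, and differed by 0.70 (SE 0.15). Srebf2 was at 114, 139, 129 and 109 CPM in untreated WT mice and at 116, 108, 98.03 and 128 CPM in untreated G93A mice. Neither age change of Srebf2 was called, but their difference was (log2 fold change −0.38, SE 0.13, adjusted p = 0.0308).

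Among the fatty acid genes Acly alone had an age change that was called different between G93A and WT mice. Acly was at 235, 296, 242 and 178 CPM in untreated WT mice and at 215, 191, 206 and 316 CPM in untreated G93A mice at 90 days. It rose with age in WT mice (log2 fold change 0.35, SE 0.13, adjusted p = 0.0419), was −0.24 (SE 0.13) and not called in G93A mice, and differed by −0.60 (SE 0.18). Scd1 was at 521, 582, 618 and 589 CPM in untreated WT mice and at 584, 385, 502 and 611 CPM in untreated G93A mice, and Elovl6 was at 55.3, 56.9, 64.2 and 61.6 CPM in untreated WT mice and at 55.4, 46.1, 56.1 and 62.03 CPM in untreated G93A mice. Both were lower with age in G93A mice (−0.54 (SE 0.11) and −0.53 (SE 0.12)) and not called in WT mice, and neither difference was called. Elovl5 was at 228, 254, 235 and 213 CPM in untreated WT mice and at 227, 185, 229 and 254 CPM in untreated G93A mice, and Fads2 was at 254, 215, 241 and 219 CPM in untreated WT mice and at 237, 235, 237 and 212 CPM in untreated G93A mice. Both were lower with age in WT mice (−0.35 (SE 0.09) and −0.24 (SE 0.07)) and not called in G93A mice, with no called difference. Acaca was at 65.5, 84.5, 81.05 and 77.1 CPM in untreated WT mice and at 79.4, 63.7, 76.2 and 80.96 CPM in untreated G93A mice, and it was higher with age in G93A mice (log2 fold change 0.24, SE 0.08, adjusted p = 0.0183). The count of 11 genes called with age in WT mice fell to 5 without WT mouse 1 of 90 days, to 6 without WT mouse 3 of 90 days, which held the high Schwann cell markers, and to 7 without WT mouse 3 of 155 days.

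OKN007 was compared with no treatment within each genotype and age. None of the 31 genes was called in any of these 4 comparisons or in the interaction of genotype and treatment at either age by edgeR's quasi-likelihood test, DESeq2 or the likelihood ratio test, and the quasi-likelihood test called 0% of all genes in each. In G93A mice at 155 days 3 genes had an unadjusted p under 0.05 (5 by DESeq2 and 3 by the likelihood ratio test), when 4.04% of all genes did, and 28 of 31 fold changes were negative, with a median of −0.13. Acly had the smallest p there: it was at 216, 187, 173 and 209.9 CPM in untreated and at 152, 156, 169 and 189.7 CPM in OKN007-treated G93A mice, and the groups overlapped (log2 fold change −0.23 (SE 0.09), unadjusted p = 0.0172, adjusted p = 0.9996). In G93A mice at 90 days 3 genes passed the unadjusted level (3 also by each of the other tests, and 5.56% of all genes), and 27 of 31 fold changes were positive, with a median of 0.13. Hmgcs1 led there, at 745, 543, 609 and 811 CPM in untreated and at 920.1, 914, 793 and 742 CPM in OKN007-treated mice. Of the untreated mice 2 lay within the treated range (log2 fold change 0.32 (SE 0.12), unadjusted p = 0.0163, adjusted p = 0.837). In this comparison 12 of 12 oligodendrocyte markers also had positive fold changes (median 0.15, none called), and the caudal Hox mean was 4.92 in untreated and 4.50 in treated mice. All 6 Schwann cell markers tested had negative fold changes there (median −2.49, none called). In G93A mice at 155 days the fold changes of 6 of 8 neuron markers (median −0.20) and 10 of 12 oligodendrocyte markers (median −0.06) were negative, none called, and the caudal Hox mean was 4.28 in untreated and 4.59 in treated mice. The part of these shifts in the signs of the 31 genes was not tested, and since the genes rose and fell together between mice, the signs are not separate observations.

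In WT mice at 90 days 2 genes, Srebf2 and Srebf1, passed the unadjusted level (2 also by each of the other tests, and 4.07% of all genes), with a median over the 31 of −0.04. All 6 Schwann cell markers tested had negative fold changes (median −4.35, none called), and the part of that shift was not tested. Srebf2 was at 114, 139, 129 and 109 CPM in untreated and at 107, 108, 104 and 111 CPM in OKN007-treated mice, and 1 untreated mouse was within the treated range (log2 fold change −0.19 (SE 0.08), unadjusted p = 0.029). In WT mice at 155 days no gene did by any test (2.94% of all genes), and the smallest p was that of Sqle, at 79.02, 77.9, 78.2 and 66.4 CPM in untreated and at 70.8, 73.5, 72.2 and 63.5 CPM in treated mice (log2 fold change −0.12 (SE 0.10), unadjusted p = 0.254). For the interaction no gene passed the unadjusted level at 90 days (2.81% of all genes) or at 155 days (2.34%), by any of the 3 tests. At 90 days its sign was positive in 31 of 31 genes, with a median of 0.16 (0.0114 over all genes tested), and the smallest p was that of Srebf2 (0.23 (SE 0.12), unadjusted p = 0.0569). Because the genes rose and fell together between mice, neither these signs nor those at 155 days are separate observations. The interaction also reuses the mice of the comparisons above. At 155 days it was negative in 27 of 31, and the smallest p was that of Scd1 (−0.24 (SE 0.13), unadjusted p = 0.0833), which was at 345, 311, 353 and 429 CPM in untreated G93A, 303, 295, 340 and 353 CPM in treated G93A, 563, 445, 500.4 and 484 CPM in untreated WT and 548, 540.4, 538 and 518 CPM in treated WT mice.

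**Figure D5:**
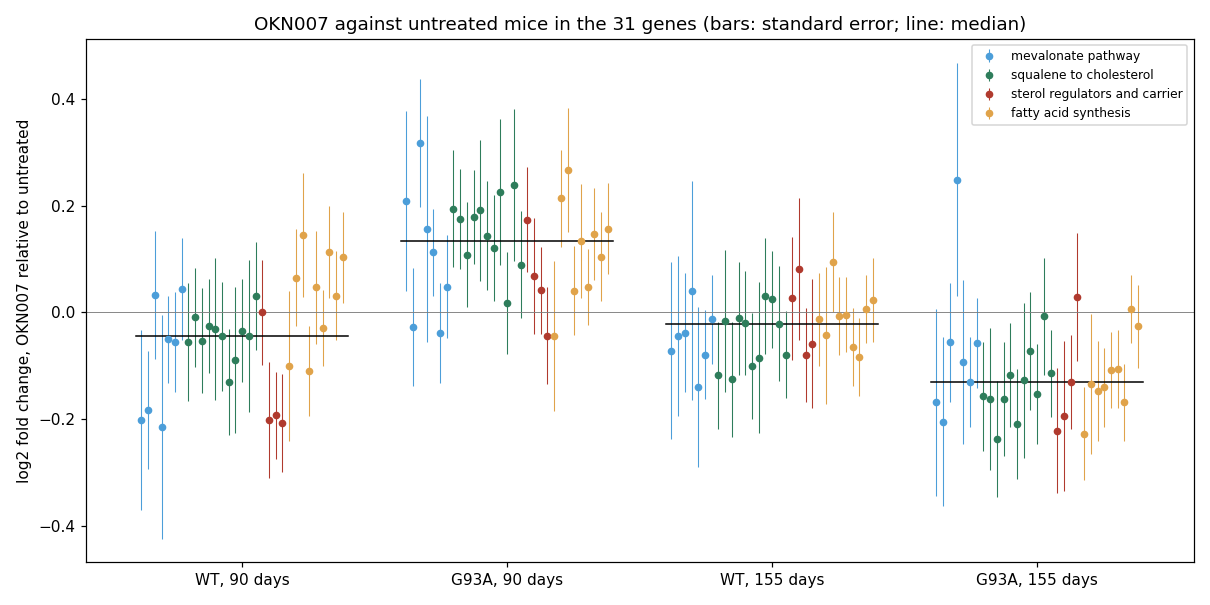
Log2 fold change of OKN007-treated relative to untreated mice (y axis) for each of the 31 genes, coloured by role, in the 4 combinations of genotype and age (x axis), with bars of 1 standard error and the median as a line. The medians are −0.04, 0.13, −0.02 and −0.13 from left to right, and no gene was called.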

How the data were processed

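Spinal cord RNA of 32 mice was sequenced with a stranded mRNA library kit, and the authors deposited 1 table of raw read counts per gene, with Ensembl identifiers and 1 column per mouse. The study's methods name STAR and HTSeq with GENCODE M10 on GRCm38, while the submitters' processing notes name STAR, featureCounts and GRCm39. The table holds 820 identifiers of a series later than GENCODE M21, so its annotation is not that of the methods, and no coordinates of the files are given. Symbols were matched for 41203 of 42524 identifiers (96.9%). The 31 genes, their roles and the marker lists were chosen with earlier results of these data known. A few genes of the lists are counted there but not reported here by name.

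Groups were taken from the labels. Counts were filtered with filterByExpr, scaled by TMM and tested with edgeR's quasi-likelihood test (edgeR 4.0.16, R 4.3.3), in 1 fit of 16 mice for each age and 1 fit of 32 mice for comparisons between ages, with Benjamini-Hochberg adjustment over all genes tested. Standard errors are the log2 fold change divided by the square root of F. Levels are CPM on TMM-scaled libraries, and means over genes are of log2(CPM + 1), with a pseudocount of 1. The script was tested on simulated data. Each mouse is 1 replicate, and mice of a group differed in counts by at least 3.8 chi-square units per gene, above sampling noise.

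Alternatives were RLE and upper quartile factors, library size only, no filter, at least 10 counts in every mouse, DESeq2 1.42.0, the likelihood ratio test, a caudal Hox covariate, other sets of mice in the fit, a replicate block and leaving out each mouse. Depth of 19701722 to 30138257 counts puts a floor of 3 counts at 0.152 CPM in the smallest library, counting error only. Values of every mouse were printed for the 5 largest and 5 smallest fold changes among genes called in untreated mice at 155 days, for genes called in another comparison except that of OKN007-treated mice at 155 days, and for the smallest p of each OKN007 comparison. Promoters were read from RefSeq (GRCm38.p6).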

Additional observations from a re-analysis of the deposited data

Results flagged for a closer look

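Between 90 and 155 days the difference between untreated G93A and WT mice itself changed in 17 of the 31 genes, by the interaction of genotype and age in edgeR's quasi-likelihood test. On the log2 scale the change from 90 to 155 days in that difference was −0.55 for Acat2, −0.68 for Hmgcs1, −0.59 for Mvk, −0.75 for Mvd and −1.02 for Idi1 in the mevalonate pathway. It was −0.69 for Fdft1, −0.71 for Sqle, −0.80 for Cyp51, −0.44 for Tm7sf2, −0.67 for Msmo1, −0.43 for Nsdhl and −0.55 for Sc5d on the way from squalene to cholesterol. For the regulators and the carrier it was 0.70 for Srebf1, −0.38 for Srebf2, −0.96 for Insig1 and −0.95 for Stard4, and it was −0.60 for Acly, the gene that supplies both pathways with acetyl-CoA.

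A mouse stood apart from the other 3 of its group in 16 of 272 sets of 4 values examined, where chance gives 13.6. At 90 days WT untreated mouse 4 had a low mean log2(CPM + 1) over the sterol regulators and carrier (6.15, next 6.30). In the same age, WT OKN007 mouse 5 was high for Acaca (91 CPM), G93A untreated mouse 12 low for Fads2 (212.3 CPM), and G93A OKN007 mouse 16 low for Ebp (33.4 CPM) and Scd1 (558 CPM). At 155 days WT untreated mouse 4 was low in the mean from squalene to cholesterol (5.66), in Msmo1 (181 CPM) and in Sqle (66.4 CPM), mouse 1 was low for Tm7sf2 (15.5 CPM) and mouse 2 high for Mvk (46.2 CPM). WT OKN007 mouse 8 was low in the mean over all 31 genes (6.29) and in that from squalene to cholesterol (5.68), and mouse 6 was high for Nsdhl (21.7 CPM). G93A untreated mouse 10 was low for Scd2 (1631 CPM) and mouse 11 high for Acaca (98.3 CPM), and G93A OKN007 mouse 15 was low for Tm7sf2 (9.42 CPM).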

How the results depend on the processing

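Counts of genes called kept within 1.5 times their value in 252 of 255 combinations of comparison and alternative, and all 56 alternative means over the genes moved by less than the spread between mice. The exceptions were 3 fits that left out 1 mouse in the comparison of 155 with 90 days in untreated WT mice, where leaving out 1 mouse gave 5 to 13 genes instead of 11. Of 486 alternative fold changes of single genes at 155 days, 453 kept their call and none reversed, and the 33 that lost it were of Hsd17b7, Fasn, Scd2 and Fads2. Leaving out 1 mouse gave 24 to 28 genes instead of 27 in untreated mice at 155 days, and 12 to 19 instead of 17 for the difference between ages. Replicate numbers recur only across ages. With a replicate block, 11 genes were called with age in WT mice, 24 instead of 23 in G93A mice and 18 instead of 17 for the difference. The correlation of same-numbered mice in their deviations from the group means ran from −0.222 to 0.26 over 16 pairs, with 3 over 0.1 and 3 mice closest to their own number, so the numbers do not pair the mice. Fdps, the gene with the lowest counts, had the largest standard error of the 31 genes in untreated mice at 155 days (0.21).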
